A study of Mus musculus with 6 samples.

Results

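The nuclear genes for the subunits of the respiratory chain and the ATP synthase were examined in the left ventricles of male CD-1 mice at 1 year of age. Genes were chosen by name: protein-coding mouse genes whose symbol matched the Nduf subunits of complex I, Sdha to Sdhd of complex II, the Uqcr genes and Cyc1 of complex III, the Cox4 to Cox8 genes of complex IV, or the Atp5 genes of complex V. The rule took 85 of the 43629 genes in the count files: 37 in complex I, 4 in complex II, 9 in complex III, 18 in complex IV and 17 in complex V. Ndufa4 and Ndufa4l2 stayed with complex I because of their symbols, although the Ndufa4 protein is known as a part of complex IV. Atp5s likewise stayed with complex V by its symbol, although under its other name, Dmac2l, it was listed as an assembly factor. Another 10 matching symbols were not protein-coding and were left out, and the 37 genes of the mitochondrial genome had 0 counts in every sample, so the subunits encoded there were not analysed here.

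Hearts came from 6 first-generation mice, 3 of them born to dams given normal saline (vehicle) and 3 to dams given 20 mg/kg caffeine by daily intraperitoneal injection. One protocol field of the labels gives the exposure as embryonic day (E) 6.5 to E9.5 and another ends it at E10.5. The animals carried no engineered allele, and only left ventricles of males were sequenced. The dam of each heart is not given in the sources used here, so p-values measure the spread between these 6 samples, some of which may be littermates. In bulk tissue, fewer cells of a type and less RNA per cell cannot be told apart.

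The respiratory chain is a series of protein complexes in the inner mitochondrial membrane. Complexes I and II take electrons from NADH and succinate, complex III passes them on to cytochrome c, complex IV passes them to oxygen, and the proton gradient that builds up drives complex V, the ATP synthase. The heart depends on this machinery for most of its ATP, and its muscle cells carry dedicated isoforms of several complex IV subunits.

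Poly(A) RNA libraries held 7613011 to 10483101 counts, and every caffeine library was smaller than every vehicle library. At these depths 3 counts, the floor used for detection, correspond to 0.286 to 0.394 counts per 1000000 counts (CPM), and this floor covers counting error only. The 10 genes with the most counts held 17.07% to 20.07% of each vehicle library and 22.59% to 25.95% of each caffeine library. Gm23935 and Gm42418, the 2 largest of them, together held 9.36%, 8.56% and 7.08% of the vehicle libraries and 15.53%, 13.46% and 12.15% of the caffeine libraries. None of the 85 genes was among those 10. Cardiac muscle markers were abundant in every heart, with Myh6 between 9022 and 16390 CPM. The atrial markers Sln and Myl7 lay at or below 0.2345 CPM in every heart, and Myl4, also listed as atrial, measured 0.7 to 1.76 CPM. Unless stated otherwise, CPM values here were scaled with the trimmed mean of M values (TMM).

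The first question was whether any subunit gene differed between caffeine and vehicle hearts. A filter on low counts kept 81 of the 85 genes. The other 4 were Cox6b2, Cox7b2 and Atp5g2, each with at most 9 counts in a heart, and Cox8c, with 0 counts in all 6. None of the 81 tested genes passed the thresholds (adjusted p below 0.05 and a fold change above 1.5) in edgeR's quasi-likelihood test, in either direction. Over all 13092 genes tested, 11 genes (0.084%) rose and 3 (0.0229%) fell past those thresholds. At an unadjusted p below 0.05 the count was 2 of the 81 genes, beside 8.82% of all genes tested. The smallest adjusted p-value was 0.497, for Sdha. The exact test, the likelihood ratio test, the robust quasi-likelihood test, DESeq2 and limma-voom likewise took no subunit gene past the thresholds. At an unadjusted p below 0.05 they had, in that order, 1, 1, 2, 2 and 2 subunit genes. The shares of all genes tested were 7.89%, 8.33%, 8.51%, 6.04% and 8.57%.

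Precision was high enough to bound most of these differences. The median standard error of a log2 fold change was 0.10 over the 81 genes. For 78 of them (96.3%) the 95% interval of the fold change lay wholly within 1.5-fold in both directions, compared with 63.0% of all genes tested. All 71 subunit genes above 100 CPM were among the 78. The 3 exceptions were Cox7c, Atp5l and Cox4i2, the least abundant of the tested genes in CPM.

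**Figure D1:**
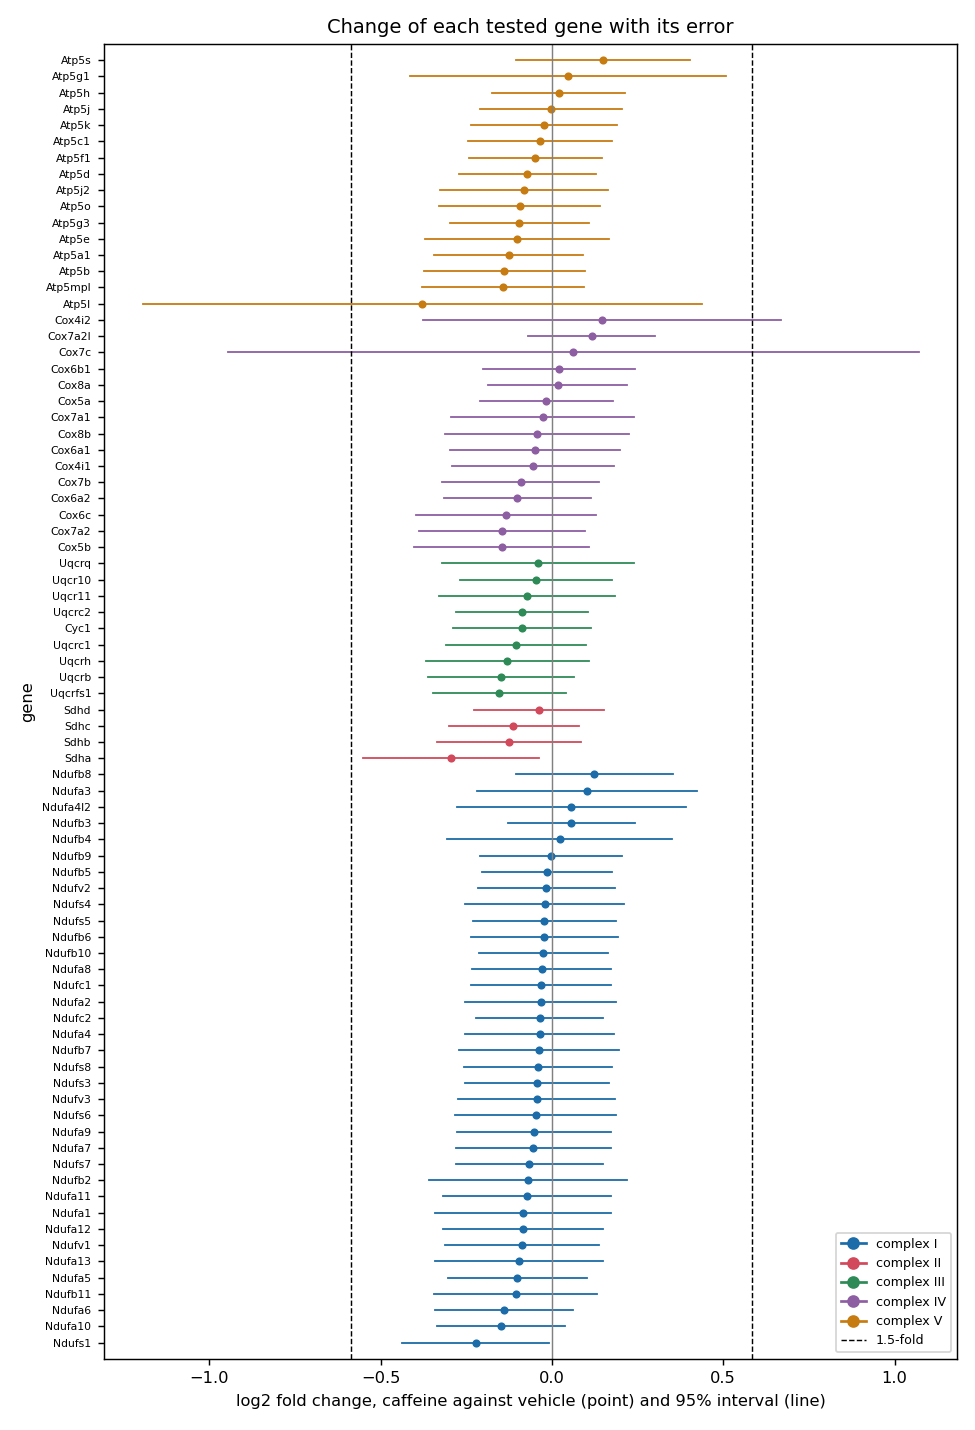
Log2 fold change of 80 of the 81 tested genes (horizontal axis, caffeine against vehicle; points) with its 95% interval from edgeR's quasi-likelihood fit (lines), coloured by complex, with dashed lines at 1.5-fold. Most points lie a little below 0, 77 of the intervals drawn stay between the dashed lines, and the widest intervals belong to Cox7c and Atp5l.

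Although no single gene passed the test, the fitted values leaned to one side. The log2 fold change was below 0 for 68 of the 81 genes (84.0%), beside 49.8% of all genes tested, and its median was -0.05, beside 0.001 for all genes. By complex the median was -0.04 in complex I, -0.12 in complex II, -0.09 in complex III, -0.04 in complex IV and -0.08 in complex V. All 4 genes of complex II and all 9 of complex III had a fitted value below 0. These values depended on which hearts were included. The median over the 81 genes was -0.025 or -0.026 without caffeine replicate 2 or 3, with 57 or 52 values below 0. It was -0.1, -0.077 or -0.126 without vehicle replicate 2, vehicle replicate 3 or caffeine replicate 1, with 74, 69 or 75 below 0. Without vehicle replicate 1 the median over the 81 genes was 0.02 and only 30 values were below 0. By complex the medians then were 0.04 (I), -0.06 (II), -0.03 (III), 0.03 (IV) and 0.001 (V), with 3 of 4 and 8 of 9 values still below 0 in complexes II and III. With every heart included, longer and more abundant genes tended to have the lower log2 fold changes. Spearman's rho over the 81 genes was -0.26 with annotated exon length and -0.35 with mean CPM. What part length or level had in the lean was not tested.

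Vehicle replicate 1 stood apart for these genes as a group. It was the highest of the 6 hearts for 61 of the 81 genes, caffeine replicate 1 was the highest for 18, and caffeine replicates 2 and 3 for 1 each. Measured as log2 CPM minus the gene's mean over the 6 hearts, the median over the 81 genes was 0.17, -0.07 and -0.01 in vehicle replicates 1 to 3 and 0.09, -0.08 and -0.10 in caffeine replicates 1 to 3. One heart of each group was thus high and the other two of each group were lower. The 5 complexes shared this order of the highest heart, with a median of 0.17 to 0.19 in vehicle replicate 1 for each of them. Over all genes tested, the same medians ran only from 0.000 to 0.009.

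**Figure D2:**
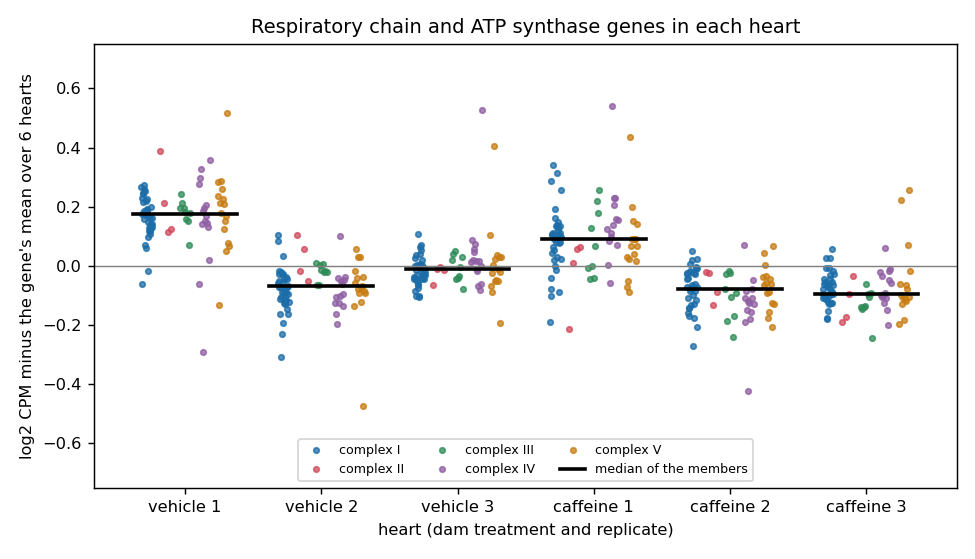
Log2 CPM of each of the 81 genes minus its own mean over the 6 hearts (vertical axis), by heart (horizontal axis) and coloured by complex, with a black bar at the median. The medians of vehicle replicate 1 (0.17) and caffeine replicate 1 (0.09) lie above those of the other 4 hearts, and 2 genes with low counts have points outside the axis.

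Of the 81 genes, 0 had all 3 caffeine hearts above all 3 vehicle hearts, beside 7.11% of all genes tested, and 1 had all 3 below, beside 7.12%. With 3 hearts against 3, an exact permutation test of such a gene cannot go below p = 0.1. Leaving out vehicle replicate 1, the counts were 3 above (12.45% of all genes) and 1 below (13.23%).

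How much of the library these genes took up depended on the denominator. The 85 genes held 5.48%, 4.997% and 5.166% of all counts in the vehicle hearts and 4.776%, 4.539% and 4.619% in the caffeine hearts. The groups did not overlap on this scale, at 5.21% ± 0.25 against 4.64% ± 0.12 (SD, n = 3 each). The Wilson 95% interval of the first of these shares ran from 5.47% to 5.49% and covers counting error only. Divided by the TMM-scaled library size, the shares were 5.61%, 4.81% and 4.83% against 5.09%, 4.69% and 4.61%, and the groups overlapped. With the 10 genes with the most counts left out of the total, they were 6.86%, 6.17% and 6.23% against 6.45%, 5.98% and 5.97%, and again overlapped. The difference was -0.57 percentage points on all counts and -0.29 on either of the other denominators. Only complex II kept its groups apart on all 3 scales, with 0.42%, 0.37% and 0.35% of the TMM-scaled library in the vehicle hearts and 0.35%, 0.35% and 0.33% in the caffeine hearts, where the closest pair, vehicle replicate 3 and caffeine replicate 1, stood at 0.353% and 0.352%.

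**Figure D3:**
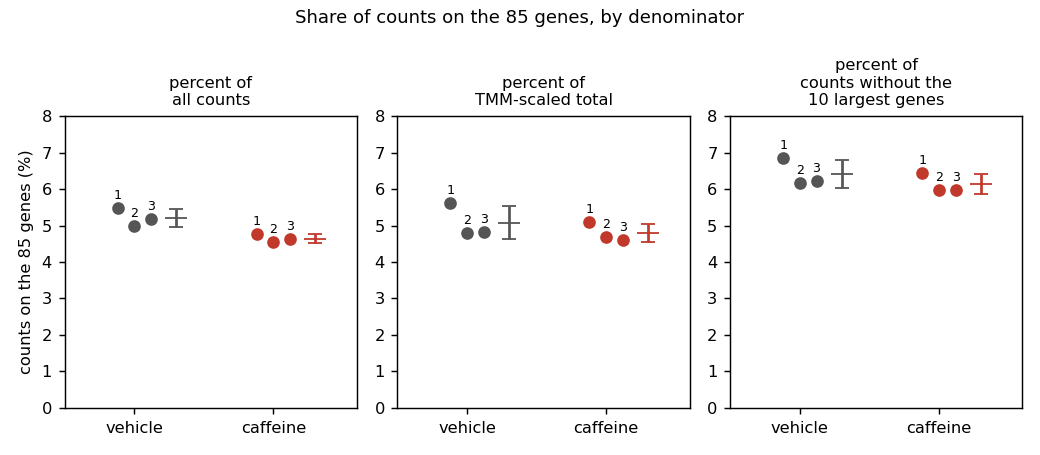
Percent of counts on the 85 genes in each heart (points, numbered by replicate) with the mean and SD of each group (bars), for 3 denominators: all counts, the TMM-scaled library size, and all counts without the 10 largest genes. The groups separate only in the first panel (5.21% against 4.64%), where the caffeine libraries also carry the larger share of the top 10 genes.

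Scaling by library size alone, without TMM factors, moved the whole distribution in the same way. The median log2 fold change was then -0.08 over all genes and -0.13 over the 81 subunit genes, 76 of which had values below 0, and the difference between both medians stayed at -0.05. On that scale 27 of the 81 subunit genes had all caffeine hearts below all vehicle hearts, beside 14.0% of all genes tested, and 0 had all above, beside 3.06%. An unadjusted p below 0.05 was found for 19 of the 81, beside 11.35% of all genes, and 0 passed the thresholds.

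Complex I, the NADH dehydrogenase, contributed 37 genes, all of them tested. Ndufs1, its largest iron-sulfur subunit, had the smallest p-value of the complex. It was counted at 725.7, 647.4 and 584.5 CPM in the vehicle hearts and 528.0, 591.3 and 559.0 CPM in the caffeine hearts. A single caffeine heart, replicate 2, lay above the lowest vehicle heart. The log2 fold change was -0.22 (SE 0.10), with an adjusted p = 0.557 from edgeR's quasi-likelihood test. Ndufa10, an accessory subunit of the membrane arm, followed with 730.4, 686.1 and 630.9 against 603.8, 637.1 and 606.2 CPM and a log2 fold change of -0.15 (SE 0.09, edgeR adjusted p = 0.669). Its groups overlapped in the same manner, through caffeine replicate 2.

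Other genes of the catalytic core of complex I showed smaller differences. Ndufv1, which binds FMN and NADH, measured 888 ± 113 CPM in vehicle and 836 ± 45 CPM in caffeine hearts (SD, n = 3 each). Its partner Ndufv2 measured 732 ± 58 and 723 ± 44 CPM. Ndufs7, an iron-sulfur subunit near the quinone site, measured 483 ± 45 against 461 ± 37 CPM. For Ndufs3 and Ndufs8 the values were 126 ± 14 against 122 ± 4 CPM and 318 ± 25 against 310 ± 31 CPM. Each of these 5 differences was smaller than the SD of the vehicle group, and all 5 log2 fold changes lay between -0.09 and -0.02. Each of the 5 was above 0 in the fit without vehicle replicate 1.

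Among the other complex I genes only 5 had fitted values above 0. Ndufb8 had the highest, at 0.12 (SE 0.10), and its 3 caffeine values of 991.6, 773.9 and 787.1 CPM stood beside 779.3, 797.1 and 765.3 CPM. That value rested on caffeine replicate 1 alone, since the other caffeine hearts lay within the vehicle range. Ndufb8 was chosen for mention after its values were seen.

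Complex II, succinate dehydrogenase, belongs both to the respiratory chain and to the tricarboxylic acid (TCA) cycle, and all its subunits are nuclear-encoded. Sdha, the flavoprotein that oxidises succinate, had the smallest p-value of all 81 genes. Its counts were 1351, 1109 and 987.5 CPM in the vehicle hearts and 889.5, 1017 and 904.4 CPM in the caffeine hearts. Caffeine replicate 2 lay above vehicle replicate 3, and vehicle replicate 1 was the highest by a wide margin. The log2 fold change was -0.29 (SE 0.12), a change of -18.5% with a 95% interval from -31.8% to -2.53%, and its edgeR unadjusted p was 0.0286 and adjusted p = 0.497. Over the alternatives the adjusted p ran from 0.0739 (no filter on low counts) to 0.751 (without caffeine replicate 3), and without vehicle replicate 1 the log2 fold change was -0.16.

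The other 3 subunits of complex II were closer between the groups. Sdhb, the iron-sulfur subunit, measured 1274, 1087 and 1090 CPM against 1107, 1082 and 975.3 CPM (log2 fold change -0.12, SE 0.10, edgeR adjusted p = 0.775). The membrane anchors Sdhc and Sdhd measured 865 ± 35 against 801 ± 57 CPM and 641 ± 42 against 624 ± 34 CPM.

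Complex III, the cytochrome bc1 complex, held the 1 gene whose groups did not overlap. This was Uqcrfs1, the Rieske iron-sulfur protein, with 1422, 1248 and 1259 CPM in the vehicle hearts and 1233, 1174 and 1126 CPM in the caffeine hearts. The highest caffeine heart lay only slightly below the lowest vehicle heart. Its log2 fold change was -0.15 (SE 0.09, 95% interval -0.35 to 0.04), with an edgeR adjusted p = 0.669, and -0.09 without vehicle replicate 1. Uqcrb, an accessory subunit near the quinone site, had 164.3, 132.8 and 142.8 CPM against 134.7, 136.5 and 125.7 CPM and a log2 fold change of -0.15 (SE 0.10, edgeR adjusted p = 0.713). Cytochrome c1 (Cyc1), which hands electrons to cytochrome c, measured 1305 ± 94 against 1227 ± 85 CPM. The other 6 genes of the complex had log2 fold changes from -0.13 (Uqcrh) to -0.04 (Uqcrq).

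Complex V, the ATP synthase, held the gene with the highest CPM of the 85, before any division by length. Atp5b, the catalytic beta subunit, had 5694, 4619 and 4458 CPM in the vehicle hearts and 4455, 4476 and 4485 CPM in the caffeine hearts. All but vehicle replicate 1 lay within a narrow band, and the log2 fold change was -0.14 (SE 0.11, edgeR adjusted p = 0.775). Without vehicle replicate 1 it was -0.02. The alpha subunit gene Atp5a1 was likewise highest in vehicle replicate 1, with 4983, 4475 and 4050 CPM against 4042, 4313 and 4019 CPM and a log2 fold change of -0.13 (SE 0.10, edgeR adjusted p = 0.779). Atp5mpl, a small proteolipid of the complex, had the smallest p-value there, with a log2 fold change of -0.14 (SE 0.11, edgeR adjusted p = 0.772).

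Complex IV, cytochrome c oxidase, is where the heart differs most from other tissues in subunit choice, and several of its subunits are encoded by a heart and muscle form and a widely expressed form. Levels of different genes are compared here as CPM per kb of annotated exon. The heart and muscle forms made up most of each pair in every heart. Cox6a2 measured 3600 to 4405 CPM per kb and its partner Cox6a1 128.3 to 167.3, so that Cox6a2 made up 96.23% to 96.66% of the pair. Cox8b held 89.47% to 91.40% of the pair with Cox8a. Cox7a1 held 82.27% to 85.28% of its set, with 10.23% to 12.63% for Cox7a2 and 4.03% to 5.29% for Cox7a2l, which also takes part in joining complexes III and IV into supercomplexes.

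The widely expressed form prevailed in the other pairs. Cox4i1 held 98.97% to 99.44% of its pair with Cox4i2, the form known from lung and low oxygen. Cox6b1 held at least 99.94% of its pair with the testis form Cox6b2, whose levels of 0.14 to 0.59 CPM are close to the detection floor. Cox7b2 and Cox8c are also known as testis genes, and they measured at most 1.02 CPM and 0 CPM. Of the 3 genes for the c subunit of the ATP synthase rotor, which encode the same mature protein, Atp5g3 held 97.11% to 98.30% and Atp5g1 1.65% to 2.87%. These shares depend on the annotated exon lengths, 2181 bases for Atp5g3 and 4912 for Atp5g1. Before division by length, their mean levels were 1854 and 96.64 CPM. Ndufa4 held 95.16% to 96.13% of the pair with Ndufa4l2, a gene known to respond to low oxygen.

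No isoform gene passed the thresholds, and the shares of the 2 groups overlapped for every set. Cox6a2, at 4005 CPM per kb the most abundant of the 85 genes on that scale, had a log2 fold change of -0.10 (SE 0.10), with 2996, 2638 and 2824 CPM in the vehicle and 2904, 2448 and 2532 CPM in the caffeine hearts. Cox7a2l had the smallest p-value of complex IV, at a log2 fold change of 0.12 (SE 0.08, edgeR adjusted p = 0.757), and Cox7a2 the next, at -0.15 (SE 0.11, edgeR adjusted p = 0.772). Cox7a2l measured 124.3, 118.7 and 130.7 CPM against 141.1, 136.0 and 127.8 CPM, and Cox7a2 248.6, 183.4 and 218.1 against 205.4, 190.5 and 191.8 CPM. In both genes the groups overlapped.

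**Figure D4:**
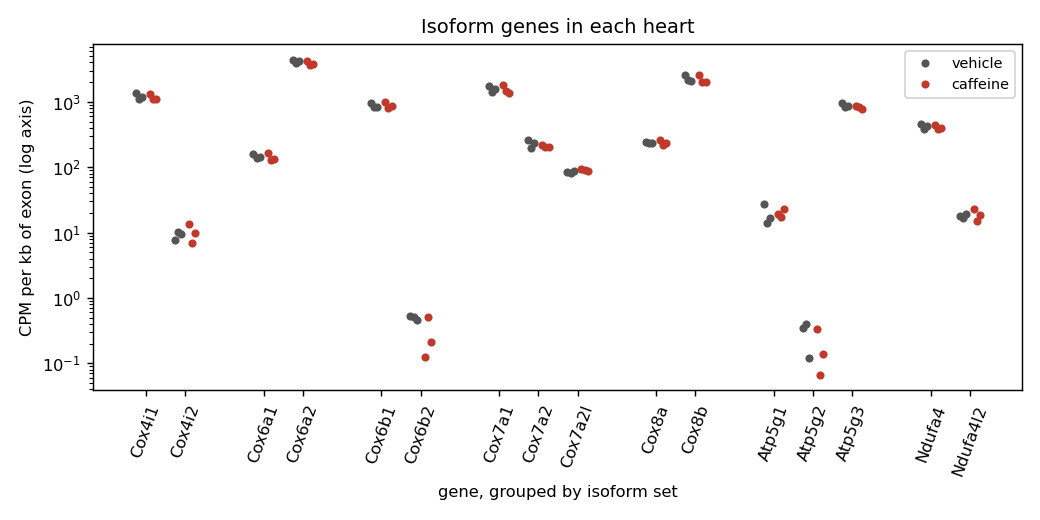
CPM per kb of exon (vertical axis, log scale) of the isoform genes, grouped by set, in the 3 vehicle hearts (grey) and the 3 caffeine hearts (red). Levels within a set differ by far more than the groups do: Cox6a2 lies between 3600 and 4405 and Cox6a1 between 128.3 and 167.3 in all 6 hearts.

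Among the subunit genes with very few counts, 3 share much of their sequence with other genes, whereas Cox6b2, Cox7b2 and Cox8c share none. Cox7c, a complex IV subunit, had 7 to 30 counts per heart, and Atp5l, subunit g of the ATP synthase, 7 to 23. Reads were 75 bases long. In the principal transcripts of GENCODE release M21, 50.4% of the 75-base windows of Cox7c, 76.0% of those of Atp5l and 86.9% of those of Atp5g2 also occurred in a transcript of another annotated gene, mostly an annotated pseudogene. Counted over all annotated transcripts of each gene, long partial ones included, the shares were 19.6%, 6.2% and 35.8%. In contrast, 50 of the 85 genes had no such window in their principal transcripts, and 15 had more than 20%. Among the genes described above, Uqcrb (29.1%) shares windows with 3 pseudogenes and Ndufs3 (28.2%) with a pseudogene and with the neighbouring gene Kbtbd4, so their counts carry the same doubt to a lesser degree.

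The start of the coding sequence shows this overlap, since every 75-base window in the coding part of these transcripts was shared (118 of 118 windows in Cox7c, 238 of 238 in Atp5l). The stretches below are the first 75 coding bases on the sense strand, with no part singled out in capitals. Cox7c lies on chromosome 13 of GRCm38 (86044816 to 86046904, minus strand), and its stretch is also found in Gm12338. Atp5l lies on chromosome 9 (44912557 to 44920742, minus strand), and its stretch is also found in Gm10221 and Atp5l2-ps.
Cox7c: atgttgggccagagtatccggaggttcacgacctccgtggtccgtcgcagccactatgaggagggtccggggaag
Atp5l: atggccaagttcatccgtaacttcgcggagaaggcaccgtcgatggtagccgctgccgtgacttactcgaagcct

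Of these other genes, Gm12338 and Gm10221 held more counts than the subunit genes, and Atp5l2-ps had at most 2 per heart. Gm12338 had 925, 772 and 747 counts in the vehicle hearts and 558, 585 and 596 in the caffeine hearts, where Cox7c had 24, 11 and 26 and 7, 30 and 15. Gm10221 had 62 to 111 counts per heart. Gm10012, which also shares windows with Cox7c, had at most 3. Gm10175 and Gm10231, which share windows with Atp5g2, had at most 1 and 2. The log2 fold change of Gm12338 was -0.16 (SE 0.11, edgeR adjusted p = 0.729). How the counter treated reads that match several places is not given in the sources used here, so the levels of Cox7c, Atp5l and Atp5g2 are uncertain, and the part of shared sequence in them was not tested.

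**Figure D5:**
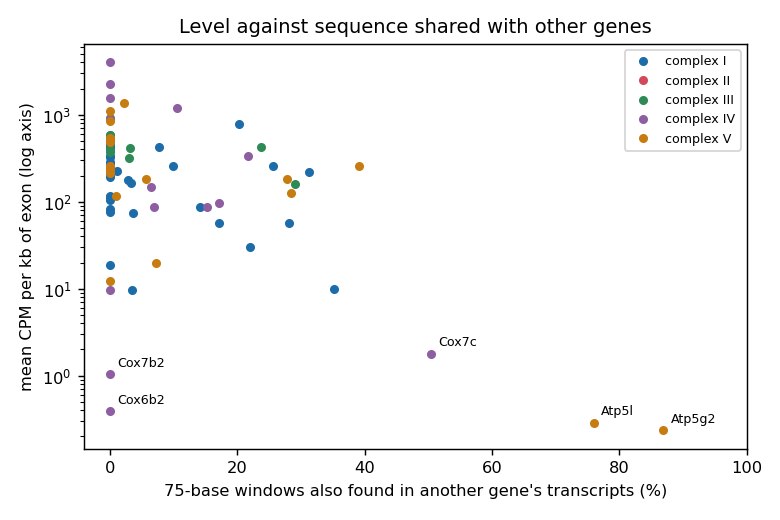
Mean CPM per kb of exon of each gene with counts (vertical axis, log scale) against the percent of its principal transcripts' 75-base windows that also occur in another gene's transcripts (horizontal axis), coloured by complex. Cox7c, Atp5l and Atp5g2 combine the largest shared percentages (50.4%, 76.0% and 86.9%) with levels under 2 CPM per kb, while the testis forms Cox6b2 and Cox7b2 are low with none.

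Genes outside the subunits but of the same pathway were read from lists. Assembly factors build the complexes, and of 49 listed for complexes I to V, 46 were tested and 0 passed the thresholds. At an unadjusted p below 0.05 there were 4 of the 46 (Lyrm7, Bcs1l, Cox10 and Cox19), a share close to the 8.82% of all genes tested. Lyrm7, the chaperone that delivers the Rieske protein to complex III, had 11.43, 20.82 and 25.53 CPM in the vehicle hearts and 42.56, 29.91 and 31.66 CPM in the caffeine hearts. All 3 caffeine values lay above the vehicle values, and the log2 fold change was 0.85 (SE 0.24, edgeR unadjusted p 0.00507, adjusted p = 0.291). Bcs1l, which moves the Rieske protein across the inner membrane, had 35.46, 34.16 and 27.15 CPM against 41.16, 37.70 and 38.93 CPM (log2 fold change 0.28, SE 0.12, edgeR adjusted p = 0.536). Cox19, a copper-handling factor of complex IV, gave 0.33 (SE 0.11, edgeR adjusted p = 0.342). Cox10, which farnesylates the heme of complex IV, gave -0.28 (SE 0.09, edgeR adjusted p = 0.369).

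By list, the median log2 fold change of the assembly factors was -0.02 for complex I (15 genes), 0.11 for complex II (4), 0.08 for complex III (6), -0.03 for complex IV (18) and -0.08 for complex V (3). Tmem186 (-0.20), Sdhaf4 (0.16) and Atpaf1 (-0.27) had the smallest p-values of the lists for complexes I, II and V. Without vehicle replicate 1 the 5 medians were 0.03, 0.09, 0.13, -0.01 and -0.05. The mobile carriers, cytochrome c and the enzymes that make coenzyme Q, had a median of -0.03 over 11 genes with 0 past the thresholds (0.006 without vehicle replicate 1), and Coq2 had the smallest p-value (0.22, SE 0.12, edgeR adjusted p = 0.649).

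TCA cycle genes, which feed the chain with NADH and succinate, leaned the same way as the subunits. None of the 14 passed the thresholds and 1 had an unadjusted p below 0.05 (8.82% of all genes tested), while all 14 fitted values were below 0, with a median of -0.13. Citrate synthase (Cs), which starts the cycle, had 1509, 1334 and 1197 CPM in the vehicle hearts and 1086, 1167 and 1099 CPM in the caffeine hearts. Its groups did not overlap, and the log2 fold change was -0.27 (SE 0.10, edgeR unadjusted p 0.0194, adjusted p = 0.422). Groups of Idh3a, Idh3g and Suclg2 did not overlap either, which makes 4 of the 14, beside 7.12% of all genes tested. Without vehicle replicate 1 the median of the list was -0.04, and 12 of the 14 values were below 0. The median without each of the other hearts was not computed for this list.

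Among 14 factors known to regulate respiratory genes, 0 passed the thresholds in the quasi-likelihood test. At an unadjusted p below 0.05 there were 0, beside 8.82% of all genes tested, and a list this short cannot show a shortage. The log2 fold changes ran from -0.134 (Pprc1) to 0.433 (Tfb1m), with a median of -0.04. For 13 of the 14 the interval of the fold change lay wholly within 1.5-fold in both directions. Tfb1m, a mitochondrial ribosomal RNA methyltransferase, had the smallest p-value, at 4.76 to 9.09 CPM in vehicle and 7.22 to 10.36 CPM in caffeine hearts (0.43, SE 0.24, edgeR adjusted p = 0.656). Ppargc1a, a coactivator of mitochondrial gene expression, had 142.2, 149.4 and 93.3 CPM against 150.2, 128.0 and 115.6 CPM, and the orphan receptor gene Esrra had 248.9 to 273.7 against 239.1 to 293.7 CPM.

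Promoters of the subunit genes were searched for 4 motifs of factors known to act at respiratory genes. The windows ran from 250 bases before to 50 bases after the start in the RefSeq table (GRCm38.p6), both strands were read, and 66 of the 85 genes were matched. A gene counted when any of its windows held the motif. The NRF1 core GCATGCGC was present in 15.2% of the 66, beside 3.05% of all 27025 genes with such windows and 3.94% of the protein-coding ones. The YY1 core AAGATGGCG was present in 10.6%, beside 1.64% and 2.14%. For the GABPA core CCGGAAGT the shares were 7.6%, 4.31% and 5.69%, and for the ERR element TCAAGGTCA they were 3.0%, 0.47% and 0.38%. None of these 4 motifs contains another. A match is a description of the letters in this window and does not show that a factor binds there.

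Sdhb, Cox6a1 and Atp5g3 are shown as examples because they are described above and carry a motif wholly before the start. Each stretch covers the 200 bases before the RefSeq start, 5′ to 3′ on the gene's strand, with the motif in capitals. For Sdhb it is chr4:140961071-140961270 (plus strand) with the NRF1 core, for Cox6a1 chr5:115348959-115349158 (minus strand) with the NRF1 core on both strands, and for Atp5g3 chr2:73911327-73911526 (minus strand) with the ERR element in reverse.
Sdhb: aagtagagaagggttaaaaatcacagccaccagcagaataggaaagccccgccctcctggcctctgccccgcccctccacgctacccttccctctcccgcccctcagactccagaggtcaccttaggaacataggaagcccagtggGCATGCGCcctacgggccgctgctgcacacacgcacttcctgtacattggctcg
Cox6a1: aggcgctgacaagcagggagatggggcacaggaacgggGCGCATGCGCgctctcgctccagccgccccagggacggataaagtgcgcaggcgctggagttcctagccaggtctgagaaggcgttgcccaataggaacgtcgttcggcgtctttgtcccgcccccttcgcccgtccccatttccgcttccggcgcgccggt
Atp5g3: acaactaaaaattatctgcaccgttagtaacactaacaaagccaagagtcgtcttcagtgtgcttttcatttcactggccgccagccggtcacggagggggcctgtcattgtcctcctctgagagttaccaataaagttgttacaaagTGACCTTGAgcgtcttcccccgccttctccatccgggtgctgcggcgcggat
The capitals begin 54, 162 and 52 bases before the start in Sdhb, Cox6a1 and Atp5g3.

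Marker genes of the cell types of the heart were read in the same fit, and 0 of them passed the thresholds in any list. The summed level of 7 fibroblast markers was 934.6, 1022 and 864.2 CPM in the vehicle hearts and 1270, 1122 and 1171 CPM in the caffeine hearts, without overlap. All 7 fitted values were above 0 (median 0.28), 5 had an unadjusted p below 0.05 (8.82% of all genes tested) and 0 passed the thresholds, and without vehicle replicate 1 the median was 0.30. Col3a1, a fibrillar collagen, had the smallest p-value, with 102.8, 136.5 and 83.88 CPM against 179.7, 147.9 and 207.6 CPM (0.73, SE 0.17, edgeR adjusted p = 0.189). The 10 cardiomyocyte markers summed to 69320, 61140 and 59070 CPM against 54770, 59870 and 56790 CPM, with a median log2 fold change of -0.07, and without vehicle replicate 1 the median was -0.004. Ttn, the giant sarcomere protein titin, had the smallest p-value among them (-0.37, SE 0.11, edgeR adjusted p = 0.302).

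Vehicle replicate 1, the highest heart for most subunit genes, was also the highest of the 6 for the summed cardiomyocyte markers and for the TCA cycle genes (16510 CPM, the others between 12990 and 14000). Caffeine replicate 1, with the next highest median over the subunit genes (0.09), had the lowest cardiomyocyte sum (54770 CPM), but single markers were split. Myh6 (9022 CPM), Ttn (6528 CPM), Tnnt2, Actn2, Ryr2 and Pln were lowest in that heart. Myl3 (7914 CPM) was highest there, Myl2 (8087 CPM) and Tnni3 (4314 CPM) were exceeded only in vehicle replicate 1, and Mybpc3 lay between. The TCA cycle sum of caffeine replicate 1 was 13240 CPM. For the fibroblast markers, the median of log2 CPM minus the gene's mean was -0.26, -0.01 and -0.13 in vehicle replicates 1 to 3 and 0.17, 0.13 and 0.21 in caffeine replicates 1 to 3, so vehicle replicate 1 was the lowest of the 6 on that measure, while vehicle replicate 3 had the lowest sum. Of 8 macrophage and immune markers, 6 were tested, with a median of 0.37 and sums of 81.75 to 121.5 CPM against 100.1 to 178.9 CPM, and Adgre1 had the smallest p-value (0.93, SE 0.24, edgeR adjusted p = 0.226). The lists for endothelial cells (median -0.003), smooth muscle and pericytes (-0.04) and red cells (-0.03) had overlapping sums, and without vehicle replicate 1 their medians were -0.12, -0.115 and -0.26. The adipocyte markers Adipoq and Plin1 were at or below 0.489 CPM in every heart, and Cfd was at or below 1.17 CPM. Fabp4, which endothelial cells also express, measured 683.8 to 1065 CPM. What part the cell types had in the levels of the subunit genes was not tested.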

How the data were processed

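RNA-seq of 6 left ventricles (3 vehicle, 3 caffeine; groups from the sample labels) was analysed. The deposited values are raw counts per Ensembl gene and are not normalized. According to the study's methods and the submitters' processing notes, the authors cleaned 75-base single-end reads with FastQC, mapped them to mm10 (GRCm38) with Tophat2 and counted them with HTSeq on Ensembl release 79. Tool versions and HTSeq settings are not given in the sources used here. Annotation and lengths came from GENCODE release M21 (GRCm38), and 1081 of the 43629 identifiers had no symbol.

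The counts were filtered with filterByExpr (minimum count 10, minimum total 15), scaled by TMM and fitted across 13092 genes with edgeR's quasi-likelihood test, treatment being the only term. P-values were adjusted by the Benjamini-Hochberg method over all genes tested. The SE is the absolute log2 fold change divided by the square root of F. The common dispersion was 0.0145 (biological coefficient of variation 12.1%). The fits were tested on simulated counts in which 200 genes were changed 2-fold and the hearts were independent. Smaller changes and genes that vary together between hearts were not simulated, so that test does not bear on them. Fits were run in R (4.3.3) with edgeR version 4.0.16, and for the alternatives with DESeq2 version 1.42.0 and limma version 3.58.1. Summaries and plots used Python version 3.11.15 with the packages pandas (version 2.3.3), NumPy (version 2.4.6), SciPy (version 1.17.1) and, for figures, Matplotlib (version 3.10.9).

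The genes and lists were chosen with earlier results of these data known. Genes named with values are those past the thresholds, the 2 with the smallest p-value in each complex, the isoform sets, the catalytic core, the most and least abundant genes, and in each other list the gene with the smallest p-value. Exceptions are marked or support a count. The values of 1 gene are not reported here. Shared windows were first computed over all transcripts. The restriction to principal transcripts was chosen after that output was seen, and both shares are given. The list gene Dmac2l was not matched by symbol, since these annotations list it as Atp5s. It was therefore counted with the complex V genes and not with the assembly factors. Alternatives were other tests, scalings and filters, a replicate block, each heart left out, and no fold change threshold.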

Additional observations from a re-analysis of the deposited data

How the results depend on the processing

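Across the 16 alternative fits and without the fold change threshold, 0 subunit genes passed the thresholds in either direction. Leaving out 1 heart moved the median log2 fold change between -0.126 and 0.021 over all tested genes, between -0.105 and 0.035 in complex I, -0.167 and -0.064 in II, -0.162 and -0.028 in III, -0.141 and 0.034 in IV, and -0.135 and 0.001 in V, with the highest value in each case without vehicle replicate 1. With library size alone, the count of genes with all caffeine hearts below all vehicle hearts was 27 of 81 in place of 1, beside 14.0% in place of 7.12% of all genes tested. Without the 10 genes with the most counts, the difference in percent of counts was -0.29 in place of -0.57. Without vehicle replicate 1, an alternative chosen after seeing the data, 3 genes had all caffeine hearts above the vehicle hearts in place of 0, and 1 had all below. For the lists of other pathway genes and of cell type markers, medians were computed only without that heart. How those medians depend on the other hearts was not examined.

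Single genes near 0 changed sign. With library size alone the log2 fold change was -0.022 for Atp5g1, -0.063 for Cox6b1, -0.07 for Cox8a and -0.03 for Ndufa4l2, and with no filter it was -0.002 for Cox6b1 and -0.005 for Cox8a. Over the fits without 1 heart the ranges were -0.147 to 0.385 (Atp5g1), -0.141 to 0.034 (Cox4i1), -0.114 to 0.36 (Cox4i2), -0.173 to 0.025 (Cox6a1), -0.057 to 0.101 (Cox6b1), -0.161 to 0.064 (Cox7a1), -0.061 to 0.081 (Cox8a), -0.181 to 0.052 (Cox8b), -0.108 to 0.02 (Ndufa4), -0.096 to 0.193 (Ndufa4l2), -0.106 to 0.047 (Ndufs3), -0.134 to 0.013 (Ndufs7), -0.124 to 0.026 (Ndufs8), -0.159 to 0.019 (Ndufv1) and -0.068 to 0.046 (Ndufv2). Other named genes kept their sign but moved by over 1.5 times without vehicle replicate 1, to -0.139 (Ndufs1), -0.097 (Ndufa10), -0.162 (Sdha), -0.046 (Sdhb), -0.091 (Uqcrfs1), -0.059 (Uqcrb), -0.028 (Cyc1), -0.036 (Cox7a2), -0.056 (Cox6a2), -0.048 (Atp5a1), -0.021 (Atp5b), -0.026 (Atp5g3) and -0.056 (Atp5mpl). Without another heart, Atp5mpl reached -0.238 and Cox7a2 -0.253 (vehicle replicate 2), Atp5a1 -0.198 (vehicle replicate 3), Cox6a2 -0.18 (caffeine replicate 1) and -0.053 (caffeine replicate 2), and Atp5mpl -0.079, Sdhb -0.07 and Atp5g3 -0.053 (caffeine replicate 3). The cause was not tested.

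Replicate numbers are shared by the groups in the labels. Same-numbered hearts did not deviate together over all genes tested (r = 0.045, -0.03 and -0.038), so the numbers were not taken as pairs. That check does not cover the 81 subunit genes by themselves. For these, replicate 1 had the highest median of its group in both groups (0.17 in vehicle, 0.09 in caffeine). A shared effect of replicate number on these genes was not tested. With the replicate block the median was -0.052, 0 subunit genes passed the thresholds, and over all genes 29 were higher and 11 lower in place of 11 and 3. Calls over all genes ranged more widely, with 61 higher and 33 lower by edgeR's exact test, 63 and 38 by the likelihood ratio test, 39 and 28 by DESeq2, and 145 and 95 with no filter. Precision was lowest for Cox7c, Atp5l and Cox4i2, and 4 genes had too few counts to be tested.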

Other observations

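Atp5g1, a minor gene for the c subunit, was spread widely within the vehicle group, with 134.8, 67.94 and 82.46 CPM beside 95.47, 86.46 and 112.7 CPM in the caffeine hearts. Its log2 fold change of 0.05 (SE 0.21) was 0.385 without vehicle replicate 1, with an edgeR adjusted p = 0.407 over all genes tested.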
